A study of Mus musculus with 4 samples.

Results

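The genes described here are 10 mouse genes whose expression is restricted to pluripotent cells and that are not core pluripotency factors: Dppa2, Dppa3, Dppa4, Dppa5a, Utf1, Lin28a, Fbxo15, L1td1, Tdgf1 and Gdf3. They were taken by gene symbol from a genome-wide Affymetrix array table, which named 18193 genes, and all 10 were found, on 15 of its 45037 non-control probe sets. A probe set is a group of short probes read as 1 intensity. The arrays compared embryonic stem (ES) cells that lack the transcription factor Klf5 (Klf5 KO, clones 1 and 2) with wild-type ES cells (WT, clones 1 and 2), with 1 array per clone. All 4 clones grew in ES medium with fetal bovine serum and LIF, a cytokine that keeps mouse ES cells undifferentiated. The labels call the replicates clones and do not say how the KO was made, which strain the cells came from, or whether the cultures ran in parallel, so the spread between arrays of a group is that between 2 clones. The stated aim was to find genes lower in KO cells.

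ES cells are held in the pluripotent state by core factors such as Pou5f1 (Oct4), Sox2 and Nanog, and Klf5 is a zinc finger protein that binds GC-rich sites at many ES cell genes. Around this core, ES cells express a set of genes that somatic cells silence, several of which are standard readouts of pluripotency and of reprogramming. Some act on chromatin (Dppa2, Dppa4, Dppa3 and Utf1), some bind RNA (Lin28a, L1td1 and Dppa5a), Fbxo15 belongs to a ubiquitin ligase, and Tdgf1 and Gdf3 belong to Nodal and TGF-beta signalling.

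Values are quantile-normalized intensities on a linear scale, in arbitrary units, and a log2 fold change is the difference, KO minus WT, of mean log2(intensity + 16). Errors are limma's moderated standard errors (SE) with n = 2 arrays per group, and adjusted p-values (Benjamini-Hochberg, threshold 0.05) run over all 27022 probe sets kept by a filter on dim signals. The trimmed means of the deposited arrays ran from 137 to 150 in KO clones and from 139 to 226 in WT clones, with WT clone 1 the brightest. After normalization the correlation over probe sets was 0.986 within KO and within WT, and 0.972 to 0.979 between KO and WT clones. Klf5 itself, on its brightest probe set, read 34.8 and 49.9 in KO clones 1 and 2 against 2398 and 1782 in WT clones 1 and 2 (log2 fold change -5.17 ± 0.22, limma, adjusted p = 3.3e-05), which separates the arrays as labelled. A dimmer Klf5 probe set had -0.35 and did not pass, and the remaining one lay under the filter. The ES cell markers Pou5f1, Sox2, Nanog, Zfp42 and Esrrb were all measured, and 0 of the 5 passed in either direction (limma; 1 lower at an unadjusted p under 0.05), with a median log2 fold change of -0.25.

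Without Klf5, Lin28a fell on 1 of its 2 probe sets, and none of the other genes passed the threshold. Of the 14 probe sets that passed the filter, 1 fell, 0 rose and 13 did not pass (limma; 2 lower and 1 higher at an unadjusted p under 0.05). Over all probe sets tested, 1.25% were called lower and 2.44% higher in KO clones, and a single call among 14 is not read as a property of the 10 genes. By normalized value, both KO clones lay below both WT clones for 6 of the 14 probe sets and above them for 3. Over all probe sets the shares were 28.4% and 23.9%. The log2 fold changes ran from -1.21 (Lin28a) to 0.96 (Dppa3). With 1 probe set per gene, the brightest, 0 of the 10 genes passed in either direction (1 lower and 1 higher at an unadjusted p under 0.05) beside 1.34% lower and 2.94% higher over 13023 genes, and 3 genes lay lower and 3 higher without overlap beside 29.7% and 25.9%. For Lin28a this choice depends on the change itself: 1421749_at was dimmer than 1437752_at in KO clones (mean log2 8.83 against 9.52) and brighter in WT clones (10.04 against 9.72), so the probe set that fell is not counted among the 10. The median of the 10 genes was 0.035, 0.017 for KO clone 1 alone and 0.013 for KO clone 2 alone, beside -0.024 over all genes.

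**Figure D1:**
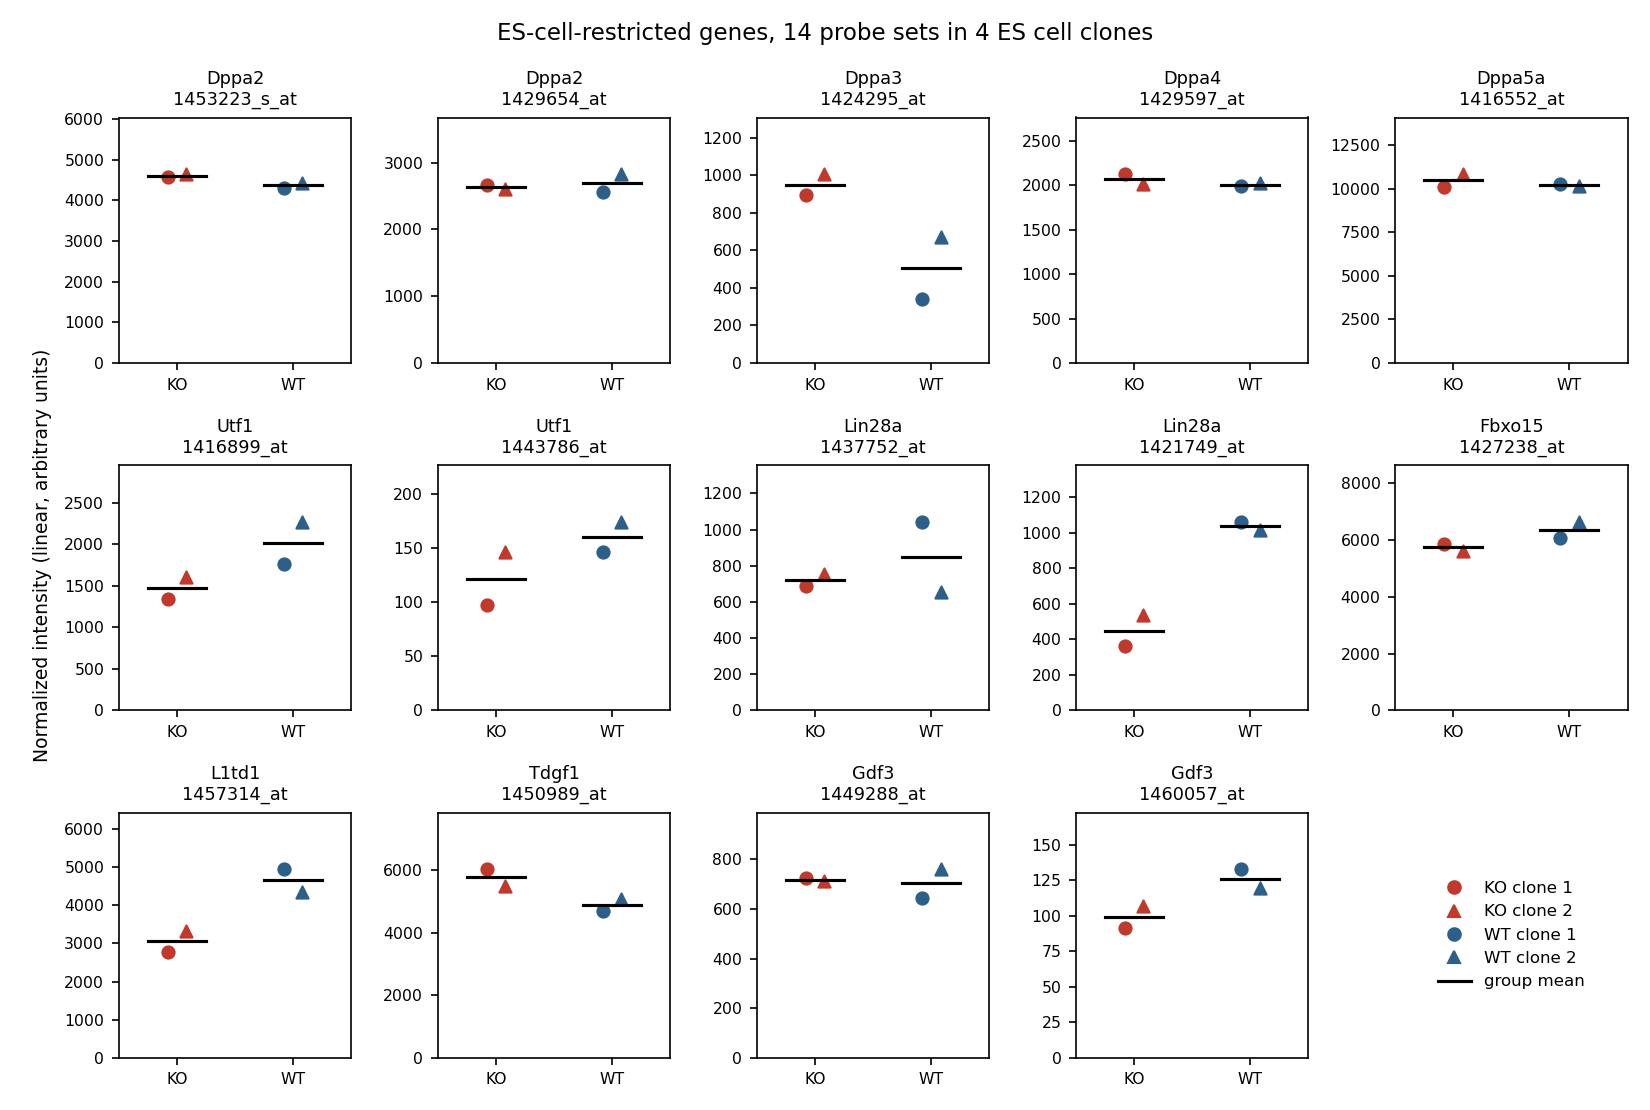
Normalized intensity (linear, arbitrary units, axis from 0) of the 14 probe sets kept, with KO clones (red) left of WT clones (blue), clone 1 as a circle, clone 2 as a triangle and the group mean as a line. Lin28a on 1421749_at reads 360.3 and 535 in KO against 1061 and 1013 in WT clones, and Dppa3 reads 895 and 1007 against 343 and 674.

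RefSeq promoter windows were matched by symbol, and any windows of the 10 genes on a single chromosome were left out. This left windows for 4 of the 10 genes, and all 4 are printed here. Among them are Lin28a, L1td1 and Utf1, the 3 genes with the lowest log2 fold change on any probe set, and Tdgf1, which read higher in both KO clones. The windows are of GRCm38.p6, from 250 bases before to 50 bases after the gene start, written 5′ to 3′ on the gene's strand. Capitals mark matches, on either strand, to GGGNGTGG, a short form of the site of Kruppel-like factors, or to CATTGT, a Sox-type site. No capitals overlap between the motifs.

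Lin28a, chr4:134018767-134019066, minus strand: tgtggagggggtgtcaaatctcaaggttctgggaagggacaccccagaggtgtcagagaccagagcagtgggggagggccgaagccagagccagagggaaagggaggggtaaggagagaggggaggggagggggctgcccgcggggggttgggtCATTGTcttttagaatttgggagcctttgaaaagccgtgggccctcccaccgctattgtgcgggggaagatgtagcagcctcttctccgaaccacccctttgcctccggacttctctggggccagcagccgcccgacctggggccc

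L1td1, chr4:98726504-98726803, plus strand: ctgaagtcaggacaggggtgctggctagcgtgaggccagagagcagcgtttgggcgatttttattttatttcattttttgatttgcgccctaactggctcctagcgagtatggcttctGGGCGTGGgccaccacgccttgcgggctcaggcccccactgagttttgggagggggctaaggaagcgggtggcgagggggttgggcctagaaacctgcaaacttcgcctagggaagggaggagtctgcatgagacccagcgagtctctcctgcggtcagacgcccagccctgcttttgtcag

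Utf1, chr7:139943606-139943905, plus strand: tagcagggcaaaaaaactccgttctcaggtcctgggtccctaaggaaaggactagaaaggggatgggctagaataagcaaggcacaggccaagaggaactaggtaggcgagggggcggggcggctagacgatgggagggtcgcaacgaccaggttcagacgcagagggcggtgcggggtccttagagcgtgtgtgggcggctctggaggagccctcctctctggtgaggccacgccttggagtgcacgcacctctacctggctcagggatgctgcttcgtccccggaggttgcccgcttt

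Tdgf1, chr9:110946109-110946408, minus strand: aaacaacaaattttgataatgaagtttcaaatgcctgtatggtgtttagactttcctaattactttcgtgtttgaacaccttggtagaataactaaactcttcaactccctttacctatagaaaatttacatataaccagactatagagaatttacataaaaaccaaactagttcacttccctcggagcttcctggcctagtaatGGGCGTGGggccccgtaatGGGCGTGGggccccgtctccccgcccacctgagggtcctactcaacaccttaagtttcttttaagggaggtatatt

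The Kruppel-like motif was found in 2 of the 4 windows. L1td1 had 1 match, 132 bases before the start, and Tdgf1 had 2, at 45 and 26 bases before it, with the same bases around both. Over all 32851 promoter windows, 17.6% held this motif. The Sox-type motif was in the Lin28a window alone, 96 bases before the start, beside 12.6% of all windows, and the octamer ATTTGCAT was in 0 of the 4 beside 1.74% of all. Of the genes with a Kruppel-like match, L1td1 had a log2 fold change of -0.61 and Tdgf1 had 0.24. Of those with none in these windows, Lin28a had -1.21 and -0.19 on its probe sets and Utf1 had -0.44 and -0.38. The GC content was 63.3% for Lin28a, 62.0% for Utf1, 58.7% for L1td1 and 41.7% for Tdgf1, beside a median of 52.7% over all windows. Dppa2, Dppa3, Dppa4, Dppa5a, Fbxo15 and Gdf3 had no window here, either because none was matched or because it lay on the chromosome left out.

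Lin28a encodes an RNA-binding protein that blocks the maturation of let-7 microRNAs. On the probe set 1421749_at, Lin28a read 360.3 and 535 in KO clones 1 and 2 against 1061 and 1013 in WT clones 1 and 2. Both KO clones were low and the groups did not overlap. The log2 value fell by 1.21 ± 0.22 (95% confidence interval -1.71 to -0.71, limma, adjusted p = 0.021), a 2.31-fold difference, and the separate KO clones lay at -1.48 and -0.93 relative to the WT average. The other probe set, 1437752_at, read 688 and 754 in KO clones against 1044 and 653 in WT clones. Here WT clone 2 was the lowest of the 4 arrays and WT clone 1 the highest, so the groups overlapped, and the log2 fold change was -0.19 (-0.73 to 0.35, adjusted p = 0.70). The WT clones differed by 0.66 on that probe set, against 0.066 on the first.

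Within each array, the log2 value of 1437752_at minus that of 1421749_at was 0.90 and 0.48 in KO clones 1 and 2 and -0.024 and -0.62 in WT clones 1 and 2. The probe sets thus differed in their change by 1.02, without overlap between the groups. With 2 against 2 arrays, an exact permutation test cannot give a 2-sided p below 0.33. No test was therefore run on such differences, and no model was fitted to them. Which part of the transcript each probe set covers was not analysed here. Beta-actin, whose probe sets at the 3′ and 5′ ends report on RNA integrity, had log2 3′/5′ ratios of 0.79 and 0.55 in KO clones against 0.40 and 0.49 in WT clones, while those of Gapdh overlapped, at -0.36 and -0.30 in KO clones against -0.28 and -0.36 in WT clones. Their part in the Lin28a difference was not tested. The call on 1421749_at was lost with a pseudocount of 1 (adjusted p = 0.12), with no filter (0.12) and without WT clone 1 (0.0502), WT clone 2 (0.063) or KO clone 1 (0.14), while the log2 fold change stayed between -1.54 and -0.93 over 13 alternatives.

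**Figure D2:**
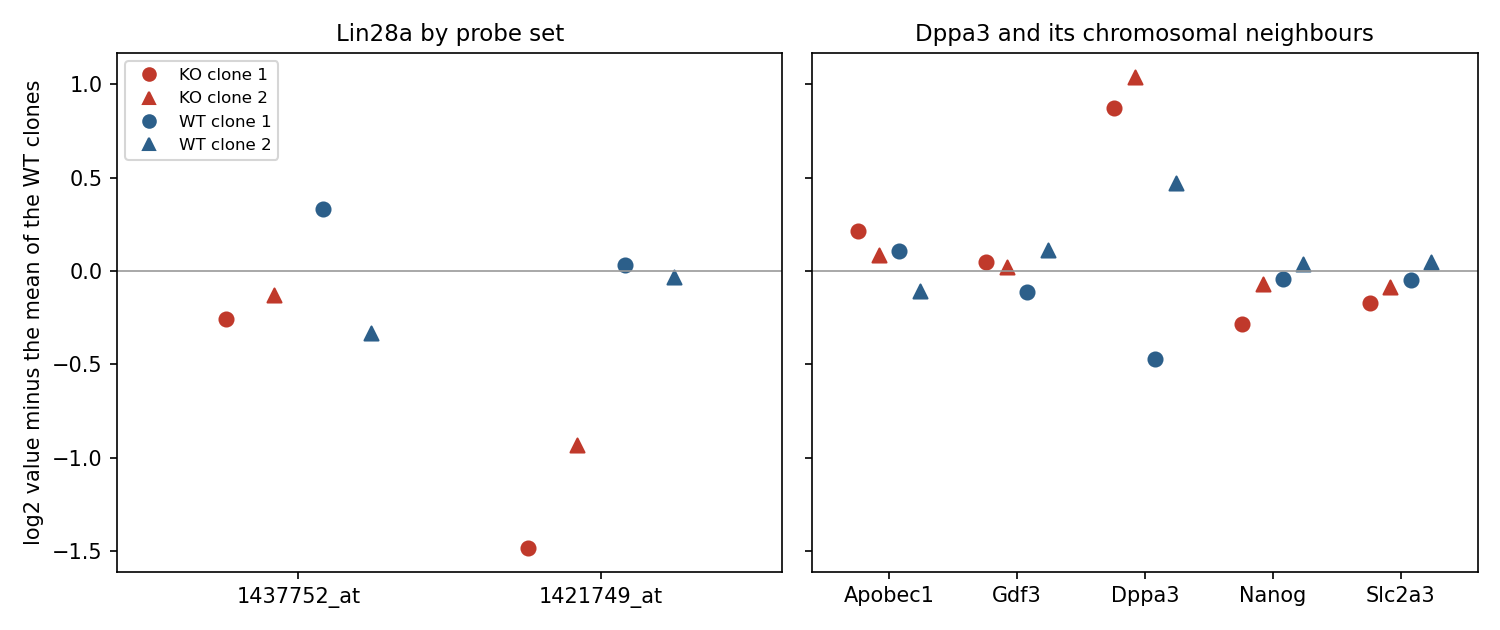
Log2 value of each array minus the mean of the WT clones, for the Lin28a probe sets (left) and for Dppa3 with the 2 measured genes on each side of it along the chromosome (right), KO clones in red to the left of WT clones in blue. On 1421749_at the KO clones lie at -1.48 and -0.93, on 1437752_at they lie at -0.26 and -0.13 between the WT clones, and Dppa3 lies at 0.87 and 1.04 in KO clones.

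Genes that act with LIN28 and let-7 were read beside Lin28a. Of 17 measured, 1 rose and 0 fell, and 16 did not pass (2 lower at an unadjusted p under 0.05), with a median of -0.072. The 17 include Imp3 (-0.38, limma, adjusted p = 0.30), a gene of ribosomal RNA processing whose name is also an alias of Igf2bp3. The gene that rose was Hmga2, a chromatin protein gene and a well-known let-7 target, which read 1417 and 1437 in KO clones against 446 and 373 in WT clones (log2 fold change 1.77 ± 0.19, adjusted p = 0.0015). Mesenchymal cells also express Hmga2, and 15 of 17 measured fibroblast markers rose in the same arrays. The part of such cells in the Hmga2 value was not tested. The paralog Lin28b lay under the filter.

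L1td1 encodes an RNA-binding protein derived from a LINE retrotransposon and found in ES cells together with LIN28. It read 2781 and 3332 in KO clones against 4947 and 4361 in WT clones, lower in both KO clones by at least 0.39 on the log2 scale in every pairing. Its log2 fold change was -0.61 ± 0.19 (-1.04 to -0.17, adjusted p = 0.12) and did not pass. It passed with a pseudocount of 64 (adjusted p = 0.028), with centring on the median (0.046) and with a variance trend (0.015), and it was -0.36 (adjusted p = 0.28) when the arrays were centred on Pou5f1, Sox2 and Nanog. Dppa5a (also called Esg1), a KH-domain RNA-binding protein gene, read 10124 and 10837 in KO clones against 10276 and 10142 in WT clones. Its groups overlapped, and the log2 fold change of 0.037 had an interval of -0.37 to 0.44. The highest normalized intensity on an array was 13415, so Dppa5a lay near the top of the measured range.

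Utf1 encodes a chromatin protein that binds promoters of developmental genes in ES cells. Its brightest probe set read 1345 and 1610.2 in KO clones against 1768 and 2272 in WT clones, lower in both KO clones (log2 fold change -0.44, interval -0.91 to 0.023, adjusted p = 0.27). A dimmer one read 97.1 and 146 in KO clones against 147 and 175 in WT clones, with nearly touching groups and a log2 fold change of -0.38 (adjusted p = 0.37). The third, 1458333_x_at, read 12.4 and 8.19 in KO clones against 13.6 and 0.873 in WT clones. It lay under the filter intensity of 13.05 on average, with a log2 fold change of 0.23 in the fit with no filter (adjusted p = 0.78).

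Dppa2 and Dppa4 are neighbouring genes whose DNA-binding proteins act as a pair in chromatin, where they keep developmental promoters poised and switch on genes of the 2-cell embryo. Dppa4 read 2127 and 2014 in KO clones against 1989 and 2028 in WT clones, with overlapping groups and a log2 fold change of 0.043 (interval -0.36 to 0.44). Dppa2 read 4567 and 4645 in KO clones against 4307 and 4429.9 in WT clones on its brighter probe set, a small rank separation with a log2 fold change of 0.076 (-0.32 to 0.48, adjusted p = 0.85). On its other probe set Dppa2 read 2671 and 2597 in KO clones against 2559.6 and 2827 in WT clones, with overlapping groups and a log2 fold change of -0.030. The suffix _s_at of the brighter one marks probes that can match related transcripts.

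A list of 22 genes of the 2-cell embryo and germline was read as linked to Dppa2 and Dppa4. Their dependence on these genes was not tested here, and 12 of them were measured. Of these, 2 rose, 0 fell and 10 did not pass (3 lower at an unadjusted p under 0.05), with a median of -0.024. Both KO clones lay below both WT clones for 5 of the 12 and above them for 3, beside 29.7% and 25.9% of all genes. The lowest was Zfp352, a gene of the 2-cell embryo, at -0.64 (limma, adjusted p = 0.11). Those that rose are germline genes: Dazl, an RNA-binding protein gene, read 437 and 442 in KO clones against 203 and 190.5 in WT clones (log2 fold change 1.10 ± 0.18, adjusted p = 0.013), and Tex101, a surface protein gene of germ cells, read 68.1 and 82.3 in KO clones against 18.0 and 35.7 in WT clones (1.12 ± 0.23, adjusted p = 0.035).

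Dppa3 (Stella) encodes a protein of oocytes, early embryos, germ cells and ES cells that restrains the DNA methylation cofactor UHRF1. It was the gene with the highest log2 fold change of the 10. Dppa3 read 895 and 1007 in KO clones against 343 and 674 in WT clones. Both KO clones were above both WT clones, but the WT clones themselves differed by 0.94 on the log2 scale. The log2 fold change of 0.96 ± 0.29 (interval 0.31 to 1.61, a 1.94-fold difference, adjusted p = 0.11) did not pass. It rested on WT clone 1: it was 0.49 (adjusted p = 0.38) without that clone and 1.43 (adjusted p = 0.017) without WT clone 2. It also passed with a pseudocount of 64 (adjusted p = 0.041) and with a variance trend (0.030).

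Dppa3 lies in a cluster of pluripotency genes, between Gdf3 and Nanog. In order along the chromosome, the log2 fold changes were 0.15 for Apobec1, an RNA-editing deaminase gene, 0.034 for Gdf3, 0.96 for Dppa3, -0.18 for Nanog and -0.13 for Slc2a3, a glucose transporter gene. Of these 5 genes 0 passed. Within each array, the log2 value of Dppa3 minus that of Nanog was -1.44 and -1.48 in KO clones and -3.02 and -2.16 in WT clones, a change of 1.13 without overlap, and against Gdf3 the change was 0.92. These differences were not tested either, since an exact permutation p could again not fall below 0.33.

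Among the 13022 other genes, those with profiles over the 4 arrays closest to that of Dppa3, by Euclidean distance of centred log2 values, were Egr3 (0.15), Hoxb3 (0.20) and A2m (0.22). Egr3 read 32.1 and 33.9 in KO clones against 4.18 and 20.9 in WT clones, and Hoxb3 read 26.7 and 25.3 against 0.943 and 12.7, both dim. A2m, an alpha-2-macroglobulin gene, read 339.7 and 415 in KO clones against 150.04 and 247 in WT clones. With 4 arrays such a likeness is a description alone. Of 7 measured DNA methylation and nuclear transport genes that act with Dppa3, 0 passed (limma; 2 lower and 1 higher at an unadjusted p under 0.05). The largest sizes were those of Dnmt3a, a de novo methyltransferase gene, at 0.86 ± 0.21 (adjusted p = 0.061) and of Dnmt1, the maintenance methyltransferase gene, at -0.72 ± 0.18 (adjusted p = 0.065). Uhrf1 read 568 and 730.0 in KO clones against 1096 and 985 in WT clones (adjusted p = 0.10). Of 7 measured primordial germ cell markers, Dazl and Stra8 rose, Prdm1 and Kit fell and 3 did not pass, with a median of -0.0071. Their summed intensity was 2386 and 2510.4 in KO clones and 2290.1 and 2691 in WT clones. The part of germ-cell-like cells in the Dppa3 value was not tested.

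The measured genes on either side of the other members were read in the same way, and none of them passed. The 4 neighbours of Lin28a ran from -0.36 (Arid1a, a subunit of the BAF chromatin remodeller) to -0.097 (Ubxn11). Those of L1td1 ran from -0.43 (Kank4) to 0.69 (Tm2d1, adjusted p = 0.17), and those of Utf1 from -0.64 (Kndc1, adjusted p = 0.13) to 0.044 (Spef1l). Next to Tdgf1, Als2cl had -0.71 (adjusted p = 0.082) beside 0.24 for Tdgf1 itself. Beyond Dppa2, Morc1, a germ cell gene, had -0.26 and Dzip3, a ubiquitin ligase gene, had -0.44 (adjusted p = 0.23).

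**Figure D3:**
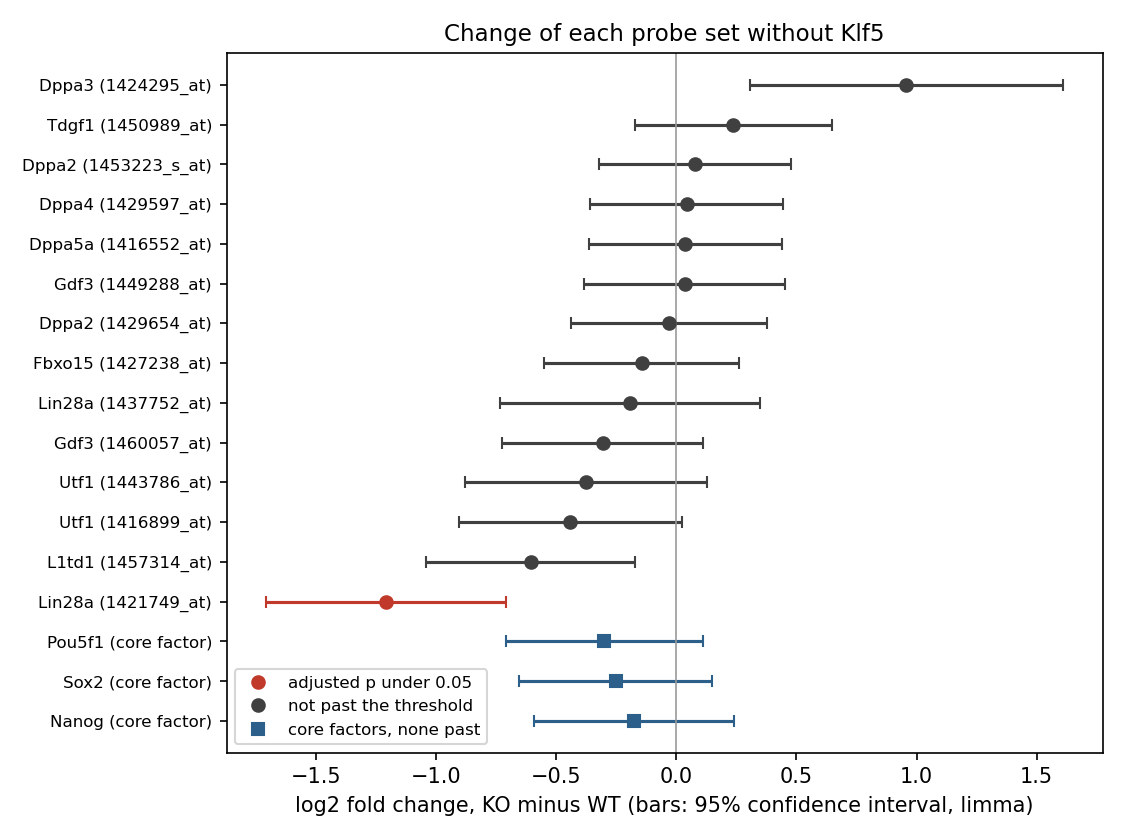
Log2 fold change, KO minus WT, with 95% confidence intervals from limma, for the 14 probe sets kept and for Pou5f1, Sox2 and Nanog (squares). One Lin28a probe set (red, -1.21) passed the threshold, and the intervals of Lin28a on that probe set, L1td1 and Dppa3 do not include 0.

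Fbxo15 encodes an F-box protein, the substrate-binding part of a ubiquitin ligase, and its locus served as a reporter in early reprogramming work. It read 5858 and 5604 in KO clones against 6051 and 6634 in WT clones. Both KO clones were slightly lower, and the log2 fold change was -0.14 (interval -0.55 to 0.26, adjusted p = 0.70). Of 8 measured partners and relatives in the ligase, 0 passed (limma; 0 at an unadjusted p under 0.05). Skp1, which links the F-box to the cullin, had 0.32 and Cul1, the cullin scaffold, had -0.25.

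Tdgf1 (Cripto) encodes a cell-surface co-receptor that Nodal needs for signalling. It read 6040.5 and 5513 in KO clones against 4699.9 and 5092 in WT clones, higher in both KO clones, with a log2 fold change of 0.24 (interval -0.17 to 0.65, adjusted p = 0.50). Gdf3, a ligand of the TGF-beta superfamily that can act through Tdgf1, read 724 and 712 in KO clones against 646 and 760.3 in WT clones on its brighter probe set. Those groups overlapped, and the log2 fold change was 0.034 (interval -0.38 to 0.45). A dimmer Gdf3 probe set read 91.1 and 107 in KO clones against 133 and 119 in WT clones, lower in both KO clones with -0.31 (adjusted p = 0.39). Within arrays, the brighter minus the dimmer Gdf3 probe set gave 2.79 and 2.57 in KO clones and 2.15 and 2.52 in WT clones.

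Nodal, the ligand itself, read 1451 and 1287 in KO clones against 1487 and 1255 in WT clones (log2 fold change 0.00087). Of 19 measured genes of Nodal signalling, 3 rose, 1 fell and 15 did not pass, with a median of 0.0071. Those that rose encode secreted proteins: Fst (follistatin, 2.48), Lefty2 (1.86) and its close paralog Lefty1 (0.90, limma, adjusted p = 0.041). The gene that fell was Bmp4, a growth factor gene, at -1.17. The receptor gene Acvr1b, named after its value was seen, had -0.70 ± 0.18 (adjusted p = 0.069).

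A list of other ES cell genes, some of them also expressed in other cell types, had a lower median than the 10 genes. It is called other ES-restricted genes below. The list held 30 names, with Tfcp2l1 also under its alias Tcfcp2l1. Of 25 measured genes, 2 fell, 0 rose and 23 did not pass (limma, 5 lower and 1 higher at an unadjusted p under 0.05). Their median log2 fold change was -0.31, beside 0.035 for the 10 genes, -0.25 for Pou5f1, Sox2 and Nanog and -0.024 for all genes. Both KO clones lay below both WT clones for 15 of the 25 and above for 2, beside 29.7% and 25.9% of all genes. Those that fell were Nr0b1, a nuclear receptor gene, at -1.50 and Tcl1, a co-activator gene of the kinase AKT, at -1.27. Both sets of genes were chosen with earlier results of these data known, and the difference between these medians was not tested. With probe sets averaged per gene, the median of the 10 genes was -0.057.

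**Figure D4:**
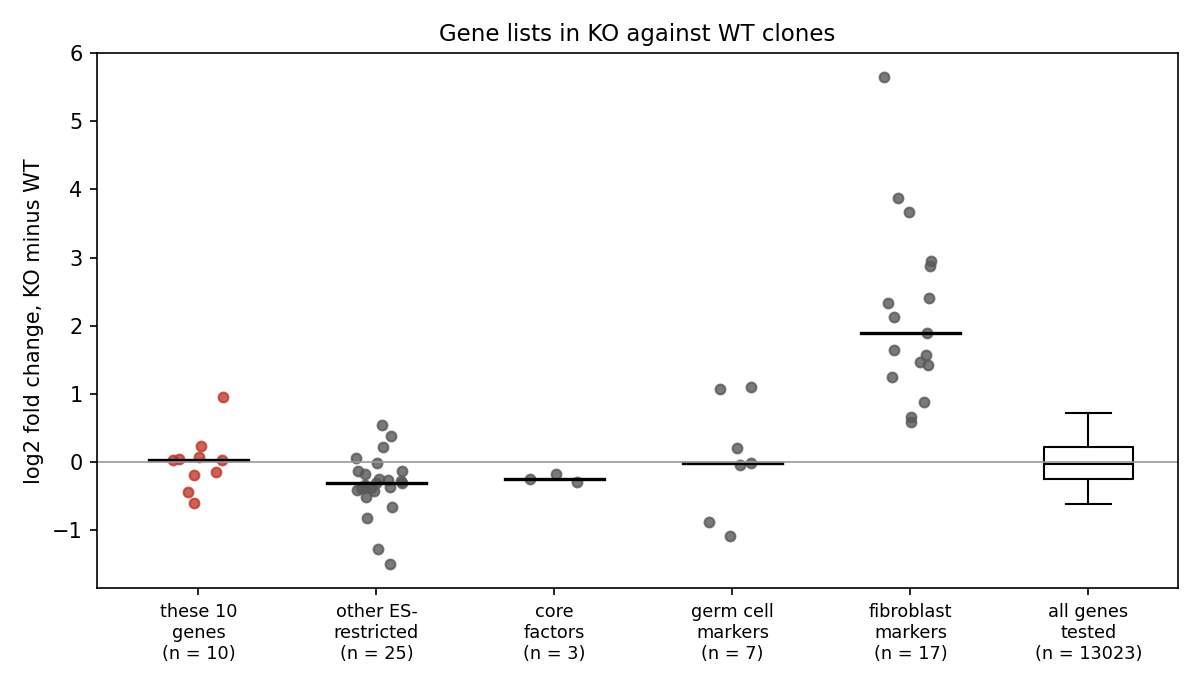
Log2 fold change, KO minus WT, of each gene (points, 1 probe set per gene, line at the median) for the 10 genes described here, other ES-restricted genes, core factors, primordial germ cell markers and fibroblast markers, beside a box of all 13023 genes (box at the quartiles, whiskers at the 5th and 95th percentiles). Medians are 0.035, -0.31, -0.25, -0.0071 and 1.89, and Lin28a is shown by its brightest probe set (-0.19).

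Markers of other cell types moved in the same arrays. Of 17 measured fibroblast and feeder cell markers, 15 rose, 0 fell and 2 did not pass, with a median of 1.89, and for 17 of 17 the KO clones lay above the WT clones without overlap. Their summed intensity, over the 19 markers on the array, was 18108 and 18125 in KO clones against 6706 and 4933 in WT clones. Of 6 measured markers of the post-implantation epiblast, 2 rose and 0 fell, with a median of 0.50: Otx2, a homeobox gene, at 2.00 (adjusted p = 0.0013) and Fgf5, a growth factor gene, at 1.11 (adjusted p = 0.019). Of 7 measured trophectoderm markers 1 fell, the keratin gene Krt18 at -0.90 (limma, adjusted p = 0.038), and 0 rose. Among the 7, 3 were lower and 1 higher at an unadjusted p under 0.05, and the median was -0.34. Of 6 measured primitive endoderm markers 0 passed (limma; 1 higher at an unadjusted p under 0.05), with a median of 0.14. In bulk RNA, fewer cells of a type and less RNA per cell cannot be told apart, and the part of these shifts in the values of the 10 genes was not tested. The summed intensity of the 10 genes was 35148 and 36028 in KO clones and 36070.2 and 37046 in WT clones. The brightest genes weigh most in this sum, with Dppa5a alone at 10124 to 10837 over the 4 arrays. Lin28a entered it by 1437752_at, the probe set that did not pass. When the arrays were centred on Pou5f1, Sox2 and Nanog, which moved the median of all genes to 0.22, Lin28a on 1421749_at had -0.97 (adjusted p = 0.045) and Dppa3 had 1.20 (adjusted p = 0.057).

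**Figure D5:**
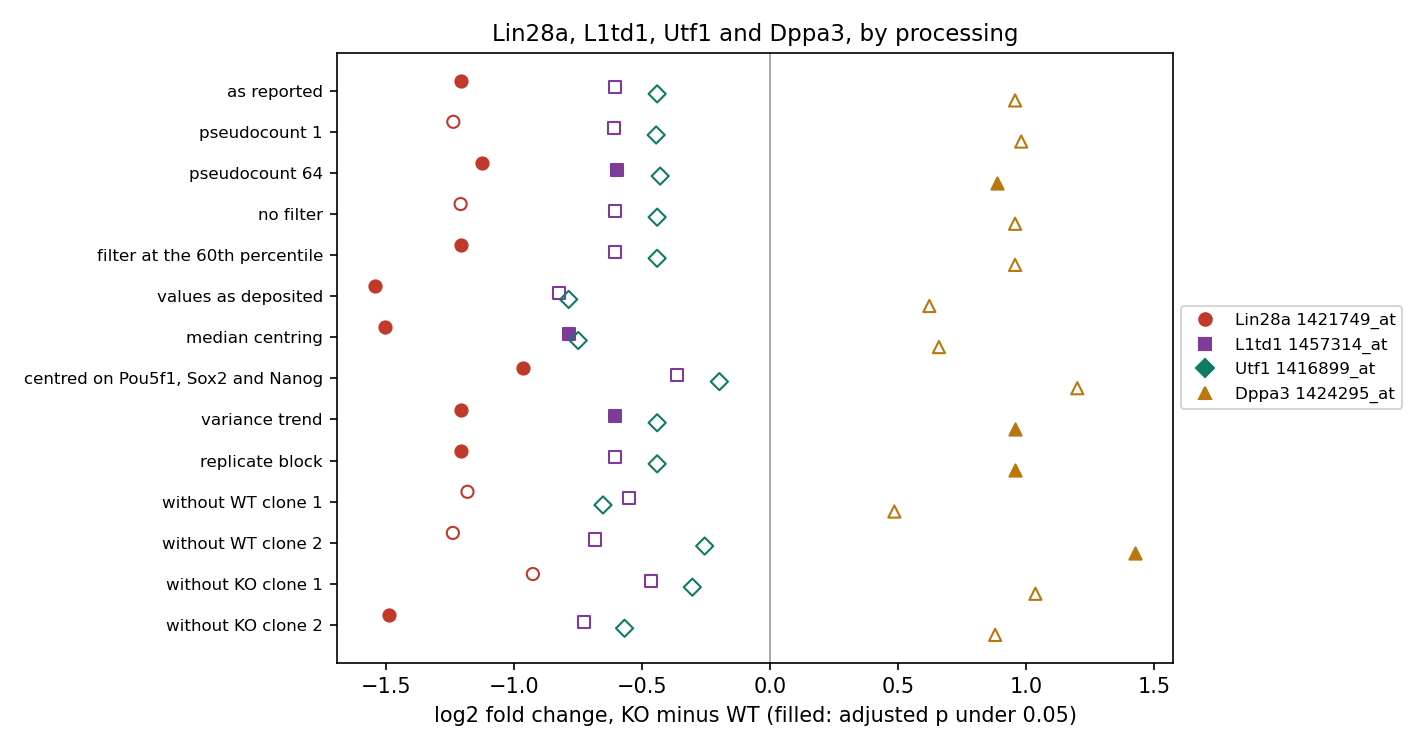
Log2 fold change, KO minus WT, of Lin28a (1421749_at), L1td1, Utf1 (1416899_at) and Dppa3 as reported and under 13 other processings (rows), filled where the adjusted p is under 0.05. Lin28a stays between -1.54 and -0.93 and Dppa3 between 0.49 and 1.43, and filled symbols come and go with the setting.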

How the data were processed

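Total RNA of each clone was hybridised to 1 Affymetrix GeneChip, per the labels' protocols. The deposited table holds 1 linear intensity per probe set and array, as the authors summarised it; the summary method, background correction and scaling were not given in those sources. The arrays were grouped by title. Intensities were quantile normalized (limma 3.58.1, R 4.3.3), 16 was added and log2 taken, which understates changes of dim genes. Tests omitted the 64 control probe sets and those whose mean log2 value lay below the 40th percentile (intensity 13.05). KO was compared with WT with lmFit and eBayes, checked on simulated data, with 2 residual degrees of freedom and 6.87 from the prior; adjustment ran over the 27022 probe sets left. The number of arrays limits the precision. Of all rows, 34958 had 1 gene symbol in the platform annotation, 932 had several, and 9160 rows other than controls were unnamed. RefSeq's mouse gene table (GRCm38.p6) matched 34754 and changed no symbol.

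A gene was represented by its brightest kept probe set, one ending in _x_at only if alone. The 10 genes, the gene lists and the motifs were chosen with earlier results of these data known. From each list the text names up to 2 genes each way past the threshold, or the 2 of largest size where none passed. Exceptions, chosen after their values were seen, are Lefty1, Nodal, Acvr1b, Uhrf1, Lin28b, Tex19.1, Mael, Zfp352 and Imp3. Alternatives were other pseudocounts, filters, normalizations and variance priors, clone number as a blocking term, single arrays omitted, averaged probe sets per gene, and a fold criterion without a test.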

Additional observations from a re-analysis of the deposited data

How the results depend on the processing

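The direction of Lin28a (1421749_at), L1td1, Utf1, Dppa3, Tdgf1 and the dimmer Gdf3 probe set was kept under all 13 alternatives run per probe set, while calls depended on the setting. Lower and higher calls among the 14 probe sets were 0 and 0 with a pseudocount of 1 or unfiltered, 2 and 1 with a pseudocount of 64 or a variance trend, and 2 and 0 with centring on the median. The criterion of at least 2-fold in all 4 pairings gave 0 and 0. With arrays left out in turn both counts ran from 0 to 1. Over all probe sets, 996 passed as reported, 189 with a pseudocount of 1, 2060 with 64, 190 unfiltered, 332 in the values as deposited, 2058 with centring on the median, 1955 with a variance trend, 369 by the fold criterion and 203 (without KO clone 1) to 653 (without WT clone 1) with an array left out. The share of higher calls was 66.2% as reported, 31.1% with centring on the median and 92.4% with centring on Pou5f1, Sox2 and Nanog.

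The median of the 10 genes, 0.035 as reported, was -0.26 in the values as deposited and -0.22 with centring on the median, settings that moved the median of all genes to -0.23 and -0.19. It was 0.28 with centring on the core factors, -0.057 with probe sets averaged per gene, and 0.013 to 0.040 with arrays left out. Probe sets near 0 changed sign. As deposited, Dppa5a had -0.010, Dppa4 -0.25, Gdf3 (1449288_at) -0.31 and Dppa2 (1453223_s_at) -0.12; with centring on the median Dppa4 had -0.22, Gdf3 -0.27 and Dppa2 -0.082; with centring on the core factors Fbxo15 had 0.098, Dppa2 (1429654_at) 0.21 and Lin28a (1437752_at) 0.050. With arrays left out, Dppa5a ran from -0.011 to 0.088, Dppa2 (1429654_at) from -0.11 to 0.040, Gdf3 (1449288_at) from -0.084 to 0.15 and Lin28a (1437752_at) from -0.53 to 0.14. None of the values that changed sign had passed. The causes were not tested.

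The clones share only a number: clone 1 minus clone 2 correlated at 0.054 between KO and WT. With clone number as a replicate block 1 of the 14 probe sets was higher (Dppa3, adjusted p = 0.040) and 1 lower (Lin28a, adjusted p = 0.011), and 1390 of all probe sets passed. With 2 clones per group, a difference as small as that of Tdgf1 (0.24, interval -0.17 to 0.65) was not detectable.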

Other observations

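Tex19.1, a germline and ES cell gene that restrains retrotransposons, read 2681 and 2657 in KO clones against 1843 and 1817 in WT clones, a log2 fold change of 0.54 ± 0.18 (limma, adjusted p = 0.13) that did not pass. It was the largest positive value on the list of other ES-restricted genes, and was named after its value was seen. Of other germline and early embryo genes, Mael, a germ cell gene of small RNA biology, had -0.011, and Zfp352, a gene of the 2-cell embryo, had -0.64 (adjusted p = 0.11).

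Ooep, an oocyte gene next to Dppa5a on the chromosome and related to it, read 922 and 834 in KO clones against 1252 and 1084 in WT clones (log2 fold change -0.40, adjusted p = 0.26), beside 0.037 for Dppa5a.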
